A study of Homo sapiens with 6 samples.

Results

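The 41 genes described here make, take up, store, modify or export cholesterol and fatty acids, and were listed by name. The cells were MOLM-14, a human leukaemia line (acute myeloid, MLL-AF9-rearranged), kept for 24 h with 10 nM cortistatin A (CA) or with DMSO, its vehicle, in medium with fetal bovine serum. CA is a steroidal alkaloid that blocks the Mediator kinases CDK8 and CDK19, and the comparison asks which transcripts change under it. There were 3 CA and 3 DMSO samples, plated as triplicate wells and each hybridised to 1 Affymetrix U133 Plus 2.0 array, and the cells of both groups came from the same line. Of the 41 genes, 36 had a probe set annotated to them alone and are compared below, among 19775 genes in all. FDFT1, NR1H2 and ACSL3 were not analysed here, and CYP51A1 and FADS1 were annotated only on probe sets that name a further gene. A gene's value is the log2 intensity of its probe set with the highest mean over the 6 arrays, and a gene was called at a limma adjusted p under 0.05 over all genes.

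Cells sense cholesterol in the membrane of the endoplasmic reticulum. When sterols are scarce, SCAP carries the SREBP transcription factors to the Golgi, where proteases release the part that switches on genes of sterol and fatty acid synthesis, and when sterols are plentiful, INSIG proteins hold SCAP back. The LXR receptors work in the other direction: they bind oxysterols and switch on the exporters ABCA1 and ABCG1 and the ubiquitin ligase MYLIP, which marks lipoprotein receptors for degradation. In liver cells CDK8 is known to phosphorylate a nuclear SREBP and shorten its life. Monocytes and macrophages use both arms when they load and unload lipid.

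SREBP activates sterol genes together with NF-Y, which binds CCAAT, so promoters of members were searched for both kinds of site. RefSeq windows of GRCh38.p14, 250 bases before to 50 after 1 start site per gene, were at hand for 32 of the 36 measured genes. For some genes, DHCR7, ACSL1 and LPIN1 among them, this site lies inside the gene's annotated span and not at its outer end. Other start sites were not searched. CCAAT, on either strand, was found in 9 of 11 sterol synthesis promoters (81.8%) and in 36.1% of the 15384 promoters of all measured genes. A sterol regulatory element written as TCACNCCAC, on either strand, was found in SREBF2 alone among the members, and in 1.09% of all promoters. The direct repeat that LXR binds, GGTCA then 4 bases then AGGTCA on either strand, was in 0 of 32 member promoters and in 0.0325% of all. The GC box GGGCGG was in 28 of 32 (87.5%), against 58.9% of all. Of the 8 called members with a window, 2 held CCAAT (25%), DHCR7 and HMGCS1. CCAAT and the sterol element did not overlap in the windows shown, while some GC boxes overlap one another, and a match is a description of the sequence only. Only these letter patterns were searched, so a window without a match may still hold a variant site. Windows of 5 members follow, 5′ to 3′ on the gene's strand: HMGCS1 and DHCR7 as sterol enzymes that rose and hold CCAAT, SREBF2 for its sterol element, and ACSL1 and VLDLR as the members with the largest changes, which hold neither. Capitals mark the sterol element and the NF-Y box, which reads in reverse complement where it lies on the opposite strand.
HMGCS1 promoter, chr5:43313363-43313662, minus strand: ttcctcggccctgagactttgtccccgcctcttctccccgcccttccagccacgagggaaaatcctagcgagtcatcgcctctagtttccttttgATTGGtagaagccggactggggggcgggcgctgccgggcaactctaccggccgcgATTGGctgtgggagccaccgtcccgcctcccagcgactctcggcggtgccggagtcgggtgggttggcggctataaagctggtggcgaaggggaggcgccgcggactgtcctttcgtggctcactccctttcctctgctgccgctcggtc
DHCR7 promoter, chr11:71448344-71448643, minus strand: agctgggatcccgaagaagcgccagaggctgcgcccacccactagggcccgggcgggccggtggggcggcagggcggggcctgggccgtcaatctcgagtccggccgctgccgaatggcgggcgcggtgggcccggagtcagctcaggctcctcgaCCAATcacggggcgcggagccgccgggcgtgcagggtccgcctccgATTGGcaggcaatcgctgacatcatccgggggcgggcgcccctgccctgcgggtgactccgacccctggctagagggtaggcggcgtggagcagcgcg
SREBF2 promoter, chr22:41832855-41833154, plus strand: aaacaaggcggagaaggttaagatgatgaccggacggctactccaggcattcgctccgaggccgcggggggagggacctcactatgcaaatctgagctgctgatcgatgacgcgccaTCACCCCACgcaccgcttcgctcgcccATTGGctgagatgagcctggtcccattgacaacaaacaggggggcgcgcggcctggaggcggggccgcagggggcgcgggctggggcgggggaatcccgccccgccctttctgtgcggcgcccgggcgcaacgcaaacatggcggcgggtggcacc
ACSL1 promoter, chr4:184825919-184826218, minus strand: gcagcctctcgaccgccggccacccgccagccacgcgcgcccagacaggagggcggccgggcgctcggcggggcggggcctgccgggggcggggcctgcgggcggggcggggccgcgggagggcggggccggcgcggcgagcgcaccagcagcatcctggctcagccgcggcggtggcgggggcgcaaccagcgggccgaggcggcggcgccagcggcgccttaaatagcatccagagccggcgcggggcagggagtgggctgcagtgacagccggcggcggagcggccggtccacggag
VLDLR promoter, chr9:2621537-2621836, plus strand: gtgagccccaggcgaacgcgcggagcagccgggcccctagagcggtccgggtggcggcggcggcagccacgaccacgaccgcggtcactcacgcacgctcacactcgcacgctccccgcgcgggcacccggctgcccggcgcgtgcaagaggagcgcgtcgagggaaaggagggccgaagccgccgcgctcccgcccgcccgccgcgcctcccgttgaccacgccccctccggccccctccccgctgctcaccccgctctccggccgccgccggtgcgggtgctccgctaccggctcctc
Counted from the start site of each window, the CCAAT boxes of HMGCS1 lay at -155 to -151 and -100 to -96, and those of DHCR7 at -94 to -90 and -48 to -44. In SREBF2 the sterol element lay at -133 to -125 and the CCAAT box at -106 to -102.

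The arrays were alike in scale, with medians of 5.59 to 5.62 over all probe sets in each, and correlated across probe sets at r = 0.998 within groups and 0.996 to 0.997 between groups. RNA integrity was read from the GAPDH control probe sets, whose log2 difference between the 3' and 5' ends was 0.44 to 0.53 in CA and 0.35 to 0.40 in DMSO. The same difference for the ACTB control was larger and overlapped between the groups, at 2.34, 2.46 and 2.34 in CA, against 2.40, 2.26 and 2.15 in DMSO. The GAPDH difference moved with the groups, and its part in the results was not tested. The myeloid markers FLT3, LYZ and CEBPA were at 11.7, 13.3 and 11.7 in CA and at 11.7, 13.4 and 11.7 in DMSO. Other markers of the list were weaker. MPO averaged 7.88 in CA and 7.82 in DMSO, SPI1 5.59 and 5.51, and FCGR1A 3.87 and 4.05. SPI1 thus lay near the array medians and FCGR1A below them. Of 8 measured myeloid markers 0 rose and 2 fell, against 6.64% of all genes called higher and 4.49% called lower. CSF1R averaged 6.31 in CA and 6.71 in DMSO (adjusted p = 0.013), and ITGAM 7.20 in CA and 7.65 in DMSO (adjusted p = 0.00377). Of 5 measured macrophage markers 0 rose and 1 fell, TREM2, at 6.29 in CA and 6.71 in DMSO (adjusted p = 0.0235). The mean level of the 8 myeloid markers was 8.43 to 8.46 in CA and 8.55 to 8.58 in DMSO, and the part of these shifts in the lipid genes was not tested. The mean level of the 5 macrophage markers was 4.86 to 4.93 in CA and 5.04 to 5.07 in DMSO. Markers of adipocytes (4) and hepatocytes (3), the cells best known for these pathways, had 0 called members in either direction by limma (1 adipocyte marker higher at an unadjusted p under 0.05), at mean levels of 4.40 to 4.45 and 4.96 to 5.10 in CA and 4.30 to 4.34 and 5.05 to 5.11 in DMSO. For lists this small, 0 called markers is near the shares of all genes called, 6.64% higher and 4.49% lower. In bulk RNA, fewer cells of a type and less RNA per cell cannot be told apart.

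Among the 36 measured lipid genes, 9 rose and 0 fell after CA. They were the acyl-CoA synthetase ACSL1, the lipoprotein receptor VLDLR, the desaturase FADS2, the sterol enzymes SQLE, HMGCS1, DHCR7 and IDI1, the phosphatidate phosphatase LPIN1 and the lipid droplet protein PLIN2. The rises were small, from 1.13-fold to 1.55-fold. The 9 genes are 25% of the 36, against 6.64% of all genes called higher and 4.49% called lower. The members were chosen with earlier results of these data known. The shares in this paragraph therefore describe the list and are not independent evidence. At an unadjusted p under 0.05, 15 of 36 members were higher and 3 lower, against 2682 and 2322 of all 19775 genes. The median log2 change was 0.09 over the members and -0.00 over all genes. The 3 CA values lay above the 3 DMSO values in 18 members (50%), against 16.6% of all genes, and below them in 5 (13.9%), against 15.2%. The fit was also run on the 10997 brighter genes, whose mean over the 6 arrays reached a log2 of 6. There 14 of 31 members were higher (45.2%) and 2 lower (6.5%), against 17.4% and 14.0% of all genes so tested. Among these brighter genes, CA values lay above all DMSO values in 58.1% of the members and 25.1% of all. They lay below in 12.9% and 22.6%. With 1 array left out, 3 members were called higher without CA replicate 3 or DMSO replicate 3, 4 without CA replicate 1 or DMSO replicate 1 or 2, and 6 without CA replicate 2, with 0 lower. ACSL1, VLDLR and FADS2 were called each time.

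**Figure D1:**
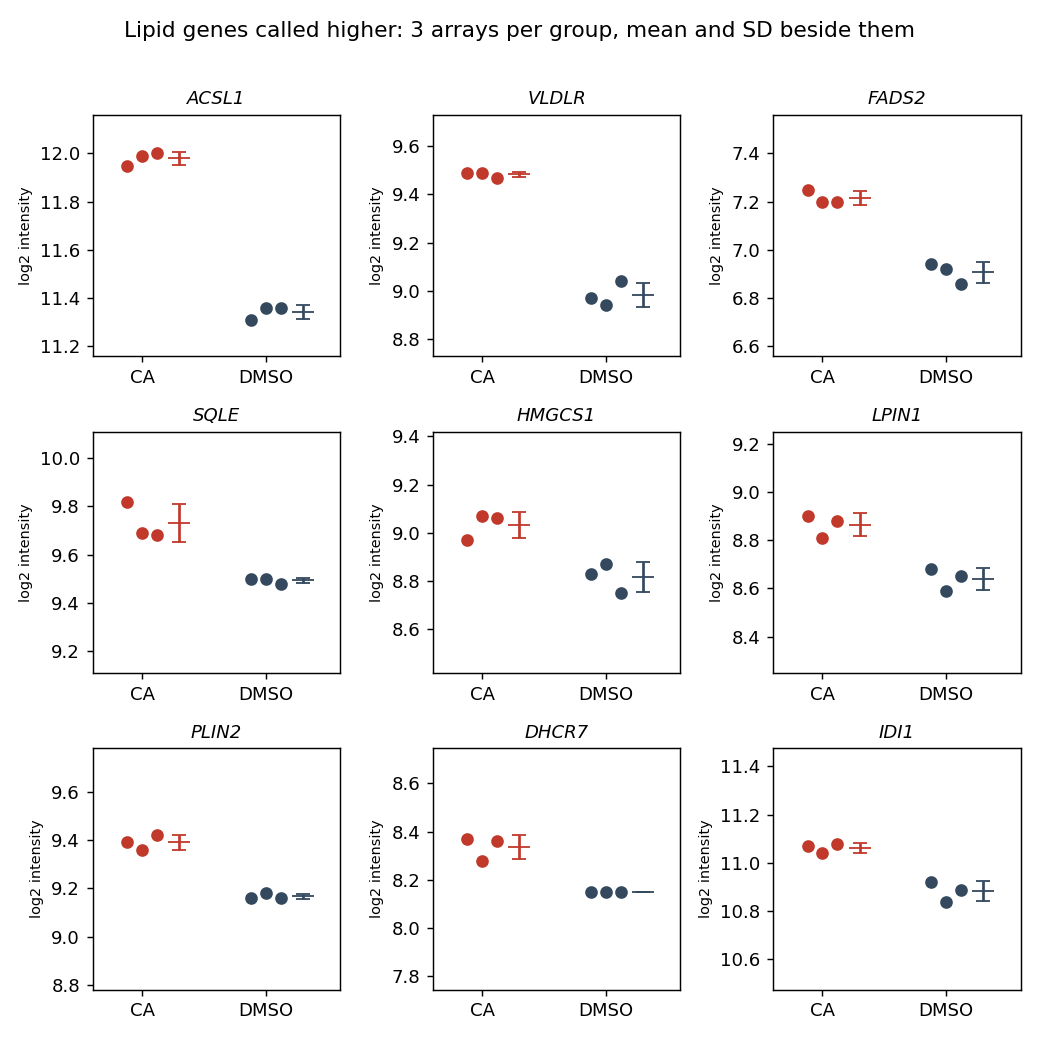
Log2 intensity of the 9 called lipid genes on each array (points; 3 CA and 3 DMSO), with the mean and SD beside them; every panel spans the same height of 1 log2 unit. In each gene the CA points lie above the DMSO points, widest apart in ACSL1 (0.64) and VLDLR (0.50).

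In sterol synthesis, 4 of the 13 measured enzymes rose (30.8%, against 6.64% of all genes) and 0 fell (median log2 change 0.14). The 4 stand at separate steps of the route. HMGCS1, which makes HMG-CoA at the entrance of the mevalonate pathway, was at 8.97, 9.07 and 9.06 in CA, against 8.83, 8.87 and 8.75 in DMSO. Its groups did not overlap, and it rose 1.16-fold (log2 change 0.22, SE 0.05, adjusted p = 0.0374). IDI1, which interconverts the isoprene building blocks, was at 11.07, 11.04 and 11.08 in CA, against 10.92, 10.84 and 10.89 in DMSO. It rose 1.13-fold (0.18, SE 0.04, adjusted p = 0.0313) on a probe set that can match other transcripts, and of its 4 probe sets 3 were higher and 1 was lower, at -0.15.

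SQLE, squalene epoxidase, catalyses the first oxygen-dependent step and is often rate-limiting. It was at 9.82, 9.69 and 9.68 in CA, against 9.50, 9.50 and 9.48 in DMSO. All CA values lay above all DMSO values, CA replicate 1 highest, and it rose 1.18-fold (log2 change 0.24, SE 0.05, adjusted p = 0.0251). Its 4 probe sets were all higher, by 0.06 to 0.29. DHCR7, the last enzyme before cholesterol in one branch, was at 8.37, 8.28 and 8.36 in CA, against 8.15 in each DMSO array. It rose 1.14-fold (0.19, SE 0.04, adjusted p = 0.0311), and its other probe set changed by 0.18.

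The other 9 sterol enzymes were not called. FDPS (log2 change 0.14, adjusted p = 0.0896), which makes farnesyl diphosphate, and SC5D (0.14, adjusted p = 0.0737), the sterol C5 desaturase, had CA values above all DMSO values, as had the cyclase LSS (0.09) and the demethylation enzyme NSDHL (0.10). ACAT2, which joins acetyl-CoA units, changed by 0.15 (adjusted p = 0.159) with overlapping groups. The kinase PMVK changed by 0.06, the decarboxylase MVD by -0.01 and the isomerase EBP by -0.02, each with overlap. Mevalonate kinase, MVK, had CA values of 8.78, 8.64 and 8.78 below DMSO values of 8.80, 8.82 and 8.90 (-0.10, adjusted p = 0.306), and of its 4 probe sets 3 were lower and 1 higher. Calls were fewer in other fits: with any 1 array left out, 1 sterol enzyme (DHCR7, without CA replicate 2) or 0 were called, and 0 on the mean of all probe sets. In the fit of brighter genes, FDPS and SC5D joined the 4.

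**Figure D2:**
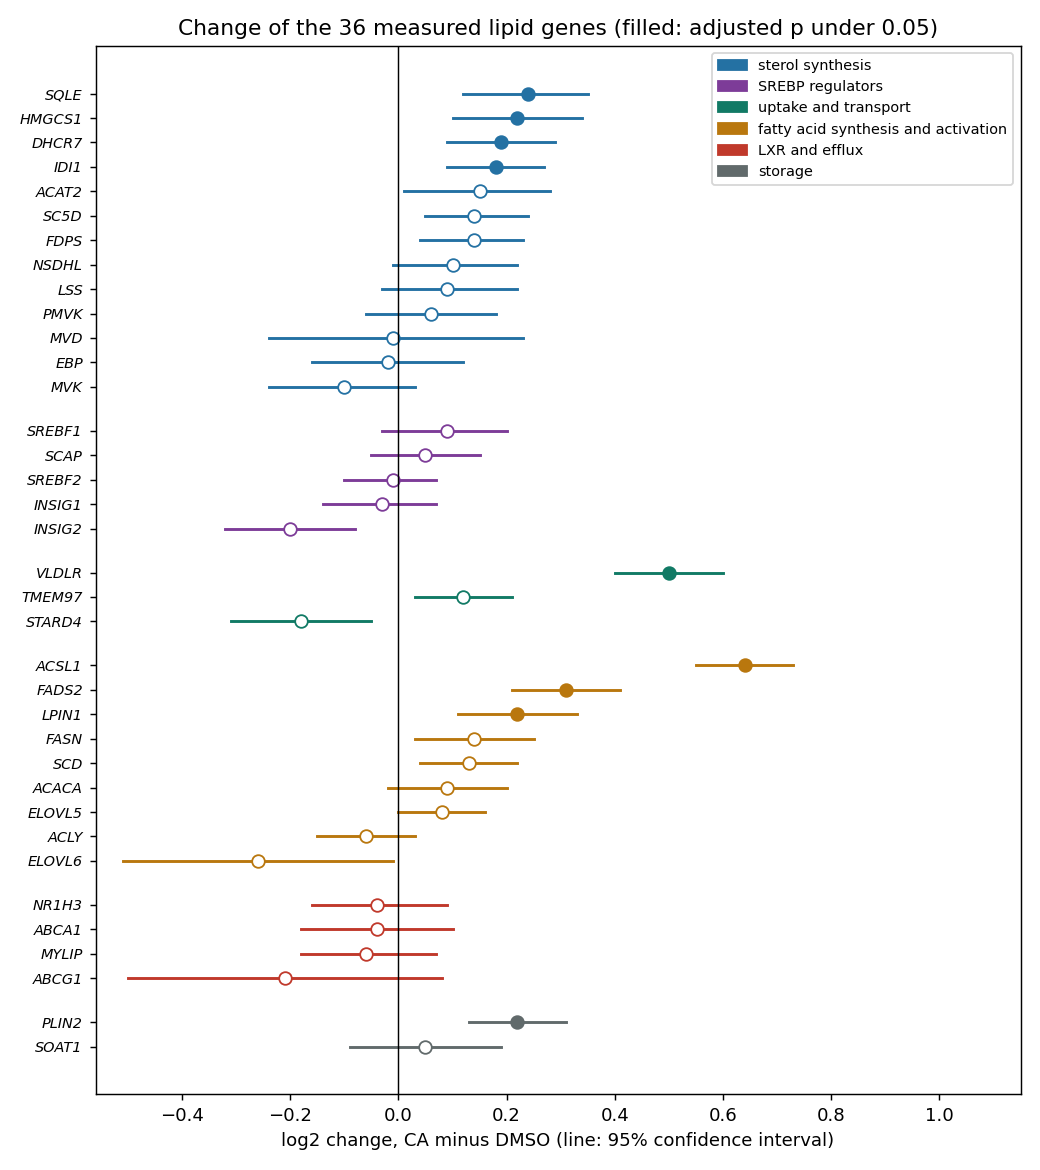
Log2 change (CA minus DMSO) of the 36 measured lipid genes by role, with the 95% confidence interval as a line; filled points had a limma adjusted p under 0.05. Filled points occur among sterol synthesis, uptake, fatty acid and storage genes, and the 4 LXR and efflux genes are open and at or left of -0.04.

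The factors that control these enzymes were not called, 0 of 5 in either direction (0 higher and 1 lower at an unadjusted p under 0.05). Of all genes, 6.64% were called higher and 4.49% lower, so 0 of 5 is near those shares. SREBF2, the SREBP that mainly drives cholesterol genes, was at 7.52, 7.51 and 7.5 in CA, against 7.54, 7.53 and 7.5 in DMSO, a change of -0.01 (95% confidence interval -0.10 to 0.07). SREBF1, which mainly drives fatty acid genes, was at 8.39, 8.49 and 8.43 in CA, against 8.35, 8.40 and 8.29 in DMSO (0.09, interval -0.03 to 0.20). Both overlapped between the groups. The escort SCAP was at 8.78, 8.83 and 8.83 in CA, against 8.82, 8.74 and 8.73 in DMSO (0.05, interval -0.05 to 0.15), also with overlap.

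The retention proteins of SCAP differed from each other in their values. INSIG1, itself an SREBP target, was at 11.05, 10.98 and 10.98 in CA, against 10.98, 11.08 and 11.05 in DMSO, a change of -0.03 (interval -0.14 to 0.07) with overlap. INSIG2, whose liver transcript falls with insulin, was at 7.51, 7.62 and 7.63 in CA, against 7.82, 7.73 and 7.83 in DMSO. Its CA values lay below all DMSO values, and the change of -0.20 missed the threshold (adjusted p = 0.0518), but passed it with array weights (adjusted p = 0.0464) and in the fit of brighter genes (0.0138). The difference between INSIG1 and INSIG2 was not tested.

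Among the 3 genes of uptake and sterol transport, VLDLR rose. This receptor takes up triglyceride-rich lipoproteins. It was at 9.49, 9.49 and 9.47 in CA, against 8.97, 8.94 and 9.04 in DMSO, and every CA value stood well above every DMSO value. The rise was 1.41-fold (log2 change 0.50, SE 0.04, adjusted p = 7.76e-04) and kept its call whichever array was omitted (0.00332 to 0.0064). VLDLR has 1 probe set here, of the kind that can match several transcripts. TMEM97, a sterol-regulated membrane protein also known as the sigma-2 receptor, was at 10.66, 10.69 and 10.71 in CA, against 10.57, 10.55 and 10.59 in DMSO (0.12, adjusted p = 0.0889), and its 4 probe sets changed by 0.12 to 0.17. STARD4, a soluble sterol carrier, was at 8.04, 7.93 and 7.98 in CA, against 8.23, 8.18 and 8.07 in DMSO (-0.18, adjusted p = 0.096). Neither overlapped between the groups, and each was called, in opposite directions, in the fit of brighter genes.

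In fatty acid metabolism 3 of 9 measured genes rose (33.3%, against 6.64% of all genes) and 0 fell (median 0.13). ACSL1, which activates long-chain fatty acids as CoA esters, had the largest change of all 36 members. It was at 11.95, 11.99 and 12.00 in CA, against 11.31, 11.36 and 11.36 in DMSO. The groups were far apart, and the rise was 1.55-fold (log2 change 0.64, SE 0.04, adjusted p = 2.07e-04). It was called in all 14 alternative fits, and its second probe set changed by 0.67.

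FADS2, the delta-6 desaturase at the start of polyunsaturated fatty acid synthesis, was at 7.25, 7.20 and 7.20 in CA, against 6.94, 6.92 and 6.86 in DMSO. It rose 1.24-fold (0.31, SE 0.04, adjusted p = 0.00535) without overlap, while its second probe set, at 5.52 to 5.61 in CA and 5.58 to 5.69 in DMSO, changed by -0.06. LPIN1, a phosphatidate phosphatase that also acts with nuclear receptors, was at 8.90, 8.81 and 8.88 in CA, against 8.68, 8.59 and 8.65 in DMSO. It rose 1.16-fold (0.22, SE 0.04, adjusted p = 0.0273), its 3 probe sets changed by 0.05 to 0.29, and with 1 array left out it was called only without CA replicate 2.

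The enzymes of fatty acid synthesis proper were not called. Fatty acid synthase, FASN, was at 8.48, 8.40 and 8.38 in CA, against 8.23, 8.29 and 8.33 in DMSO (log2 change 0.14, adjusted p = 0.112). SCD, which makes monounsaturated fatty acids, was at 12.48, 12.41 and 12.42 in CA, against 12.34, 12.28 and 12.30 in DMSO (0.13, adjusted p = 0.0882). These groups did not overlap, nor did those of the carboxylase ACACA (0.09), the elongase ELOVL5 (0.08), the citrate lyase ACLY (-0.06) or the elongase ELOVL6 (-0.26, adjusted p = 0.187). ACLY, which supplies cytosolic acetyl-CoA, and ELOVL6 were the members of this group with lower values in CA. FASN and SCD were higher in the fit of brighter genes (adjusted p = 0.0349 and 0.0225).

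The LXR and efflux arm showed no called gene, 0 of 4 in either direction, with 0 at an unadjusted p under 0.05 and 0 with an intensity trend and robust moderation. Of all genes, 6.64% were called higher and 4.49% lower, so 0 of 4 is near those shares. Only 1 of the 4 had a mean log2 of at least 6. The LXR-alpha gene NR1H3 was at 5.75, 5.65 and 5.70 in CA, against 5.67, 5.73 and 5.82 in DMSO (log2 change -0.04, interval -0.16 to 0.09). The cholesterol exporter ABCA1 was at 4.86, 4.91 and 4.80 in CA, against 4.79, 4.94 and 4.95 in DMSO (-0.04, interval -0.18 to 0.10). Both overlapped between the groups. ABCG1, which exports cholesterol to HDL, was at 5.08, 4.59 and 4.87 in CA, against 5.08, 4.96 and 5.12 in DMSO (-0.21, interval -0.50 to 0.08), with CA replicate 2 lowest. MYLIP was at 9.95, 9.83 and 9.82 in CA, against 9.91, 9.97 and 9.88 in DMSO (-0.06, interval -0.18 to 0.07), again with overlap. The probe sets of these genes did not all overlap. Of 4 for ABCA1, 1 had its CA values below all DMSO values (-0.16), as had 1 of 6 for MYLIP (-0.14). Of 4 for ABCG1, 1 had them above (0.15), at means of 3.12 in CA and 2.97 in DMSO. These probe sets were not tested separately. The ABCA1 and ABCG1 values lay below the median of all probe sets on every array, and the table gives no detection calls, so a change of these exporters may not have been detectable.

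The synthesis and the efflux genes are set side by side here, and the difference between the arms was not tested. The efflux arm has only 4 measured genes, 1 of them at a mean log2 of at least 6. Relative to each gene's own mean over the 6 arrays, the 13 sterol synthesis genes averaged 0.035 to 0.082 in CA arrays and -0.060 to -0.050 in DMSO arrays on the log2 scale. The 9 fatty acid genes averaged 0.032 to 0.094 in CA and -0.081 to -0.061 in DMSO. The 4 LXR and efflux genes averaged -0.117 to 0.051 in CA and 0.005 to 0.084 in DMSO, and so overlapped. All genes tested averaged -0.003 to 0.011 in CA and -0.009 to 0.001 in DMSO.

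**Figure D3:**
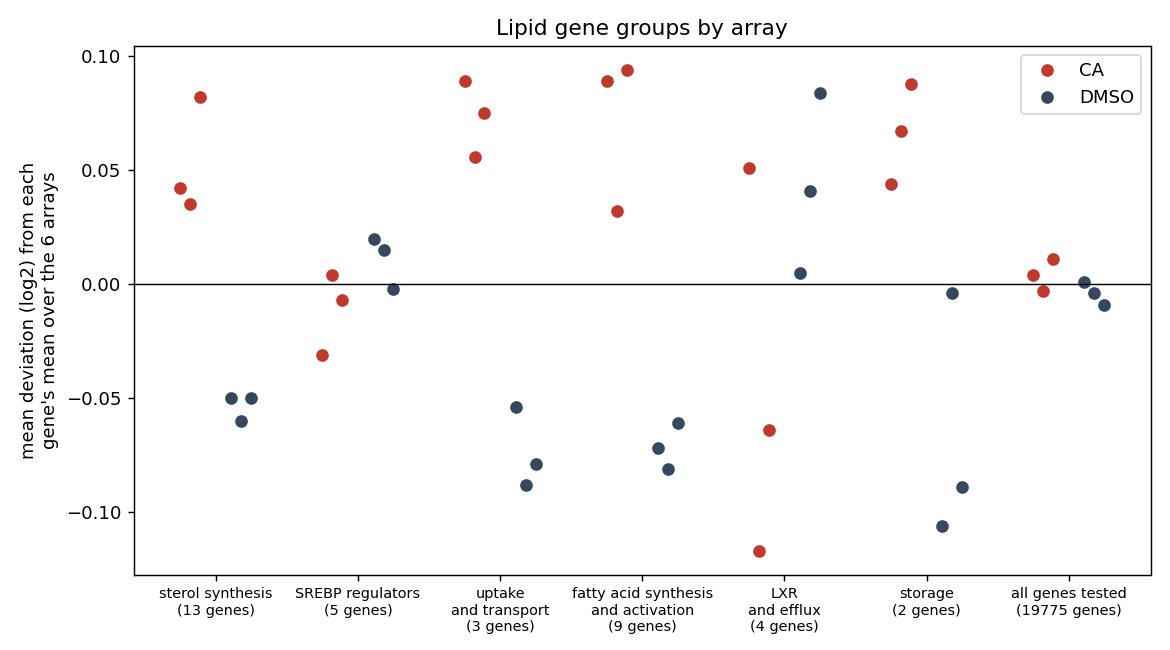
Mean deviation (log2) of each group of lipid genes from the genes' own means over the 6 arrays, 1 point per array, with CA left of DMSO. CA points lie above DMSO points for sterol synthesis, uptake, fatty acid and storage genes, and overlap with them for SREBP regulators and for LXR and efflux genes.

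Of the storage genes, PLIN2, the coat protein of lipid droplets, was at 9.39, 9.36 and 9.42 in CA, against 9.16, 9.18 and 9.16 in DMSO. It rose 1.16-fold without overlap (log2 change 0.22, SE 0.04, adjusted p = 0.0127). The call was lost without CA replicate 3 (adjusted p = 0.0522) or DMSO replicate 3 (0.0563), and its second probe set changed by 0.04. SOAT1, which esterifies cholesterol for storage, was at 9.69, 9.77 and 9.75 in CA, against 9.61, 9.80 and 9.65 in DMSO (0.05, interval -0.09 to 0.19), with overlap.

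Around these members, 80 other measured genes of lipid metabolism in 7 lists held 5 genes called higher (6.25%, against 6.64% of all genes) and 8 called lower (10.0%, against 4.49% of all genes), 4 of the 8 in the oxidation list. Of 5 further sterol synthesis genes 0 were called by limma, with 2 higher and 1 lower at an unadjusted p under 0.05. MSMO1, a sterol oxidase next to NSDHL in the route, was at 9.25, 9.28 and 9.24 in CA, against 9.07, 9.14 and 9.0 in DMSO (0.18, adjusted p = 0.0535), and was chosen after its values were seen. Of 9 genes that process or degrade SREBP pathway proteins, 0 rose and 1 fell (11.1%, against 4.49% of all genes). This was ERLIN2, a membrane protein that binds SREBP complexes and helps to degrade sterol pathway proteins. It was at 8.53, 8.52 and 8.54 in CA, against 9.11, 9.12 and 8.98 in DMSO (log2 change -0.54, adjusted p = 0.00115), its 3 probe sets were all lower, and the call held in all 14 alternative fits.

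Of 10 genes of intracellular sterol transport, 1 rose and 1 fell (10.0% each way), and of 19 other fatty acid synthesis genes, also 1 and 1 (5.26% each way), against 6.64% of all genes called higher and 4.49% called lower. NPC1, which moves cholesterol out of lysosomes, was at 8.66, 8.66 and 8.73 in CA, against 8.37, 8.31 and 8.28 in DMSO (0.36, adjusted p = 0.00374), with 2 of its 4 probe sets higher and the others lower. LIPA, the lysosomal lipase that frees cholesterol from its esters, fell (-0.16, adjusted p = 0.0494), but its other probe set changed by 0.24. The fatty acid synthesis genes were the malic enzyme ME1 (0.20, adjusted p = 0.0221), which supplies NADPH, and MLX (-0.21, adjusted p = 0.0351), the partner of carbohydrate-responsive factors. With 1 array left out in turn, LIPA and ME1 were called in 0 of 6 fits and MLX in 1. The 3 probe sets of ME1 were all higher, while the 6 of MLX changed by -0.21 to 0.18, 5 of them lower. Of 8 LXR partners and targets, 1 rose (12.5%, against 6.64% of all genes) and 0 fell. RXRA, the receptor that pairs with LXR and with PPAR, was at 10.59, 10.60 and 10.58 in CA, against 10.33, 10.27 and 10.21 in DMSO (0.32, adjusted p = 0.00565), and both its probe sets were higher.

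Of 15 lipid droplet and triglyceride genes, 1 rose and 1 fell (6.67% each way). These shares are near the 6.64% of all genes called higher and the 4.49% called lower. DGAT1 rose (0.22, adjusted p = 0.025) and DGAT2 fell (-0.23, adjusted p = 0.026). They encode unrelated enzymes for the same reaction, the last step of triglyceride synthesis. Each kept its call with 1 of the 6 arrays left out in turn, and lost it with the other 5. Of 14 genes of fatty acid oxidation and PPAR signalling, 4 fell (28.6%, against 4.49% of all genes) and 1 rose (7.14%, against 6.64%), with a median log2 change of -0.01. PPARA, the receptor that activates oxidation genes in liver, was at 7.52, 7.57 and 7.51 in CA, against 7.16, 7.07 and 7.07 in DMSO (0.43, adjusted p = 0.00177), and its 9 probe sets were all higher.

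The genes that fell encode enzymes of oxidation itself. The medium-chain dehydrogenase ACADM was at 11.63, 11.68 and 11.71 in CA, against 11.91, 12.05 and 11.92 in DMSO (-0.29, adjusted p = 0.0168). CPT1A, which admits fatty acids to mitochondria, was at 9.90, 9.92 and 9.95 in CA, against 10.21, 10.20 and 10.08 in DMSO (-0.24, adjusted p = 0.0251). The subunits of the trifunctional protein, HADHA (-0.20, adjusted p = 0.0217) and HADHB (-0.21, adjusted p = 0.0243), fell as well and were chosen after their values were seen. In these 4 genes the CA values lay below all DMSO values and all probe sets of each were lower. With 1 array left out, 0 to 2 of the 4 were called: 0 without CA replicate 2, 1 without CA replicate 1 or DMSO replicate 1 or 2, and 2 without CA replicate 3 or DMSO replicate 3.

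**Figure D4:**
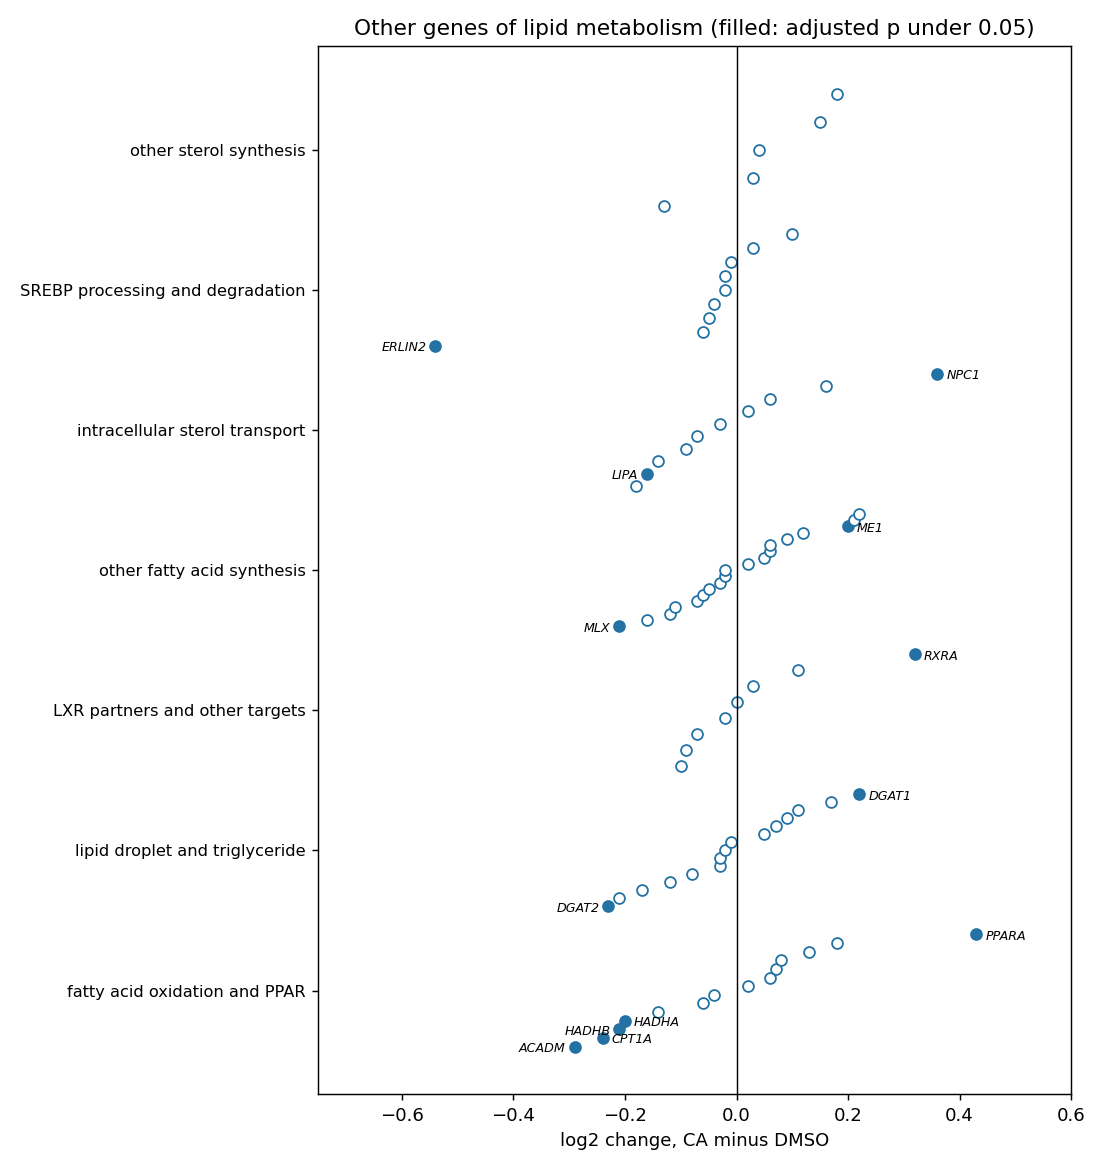
Log2 change (CA minus DMSO) of 80 further genes of lipid metabolism in 7 lists, 1 point per gene; filled points had a limma adjusted p under 0.05 and are named. Most points are open and near 0, ERLIN2 (-0.54) and PPARA (0.43) lie farthest out, and 4 oxidation genes are filled on the left.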

How the data were processed

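RNA of 3 CA and 3 DMSO samples was amplified from its 3' end and hybridised to 1 array each, per the labels' protocols, with 1 of a pair of extraction kits that the labels do not assign to samples. The deposited values are log2 intensities that the authors made by RMA (affy), as the submitters' processing notes name them, in versions not given in the sources used here. RMA corrects background, normalizes arrays to 1 distribution and compresses large changes. Precision is limited by having 6 arrays. The labels do not name separate cultures beyond wells, so the p-values reflect the spread among these wells alone, which may be technical.

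Of 54675 probe sets, 62 were controls, 41091 named 1 gene in the platform annotation, 1801 several and 11721 none. Symbols were updated by Entrez number through a RefSeq gene table (GRCh38.p14), with 41037 matched, and probe sets of several genes named none. The test of CA against DMSO was a 2-sided limma fit without covariates (lmFit, eBayes; limma 3.58.1, R 4.3.3), with Benjamini-Hochberg adjustment over 19775 genes. The fit was tested on simulated data. Same-numbered arrays did not deviate together (r = 0.0225 to 0.0299 across genes), so the numbers were not taken as pairs. Alternatives changed the probe set rule, level filter, centring, moderation, array weights, block, threshold and arrays.

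All 41 members are named, and of each other list up to 3 called genes of largest change. MSMO1, which was not called, and HADHA and HADHB were named beyond this rule, after their values were seen. Members and lists were chosen with earlier results of these data known. Of the other lists, 80 of 86 genes are reported, and some markers were not analysed here. Promoter sequences are from RefSeq (GRCh38.p14).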

Additional observations from a re-analysis of the deposited data

Results flagged for a closer look

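Probe sets that name a second gene besides a lipid gene stood outside the comparison. Of the 5, 4 had all CA values above all DMSO values, against 16.6% of the genes compared. The 5 probe sets belong to CYP51A1 and FADS1 alone, so they are not separate results. They were not tested. CYP51A1, the sterol 14-demethylase, shares its annotation with LRRD1: its first probe set was at 10.07, 10.12 and 10.07 in CA, against 9.81, 10.06 and 9.78 in DMSO (log2 difference 0.20), and its second overlapped between the groups (0.14). FADS1, the delta-5 desaturase that lies beside FADS2, shares its annotation with the microRNA gene MIR1908. Its 3 probe sets differed by 0.33, 0.19 and 0.26 on the log2 scale. The first of them was at 8.40, 8.35 and 8.45 in CA, against 8.16, 7.90 and 8.13 in DMSO.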

How the results depend on the processing

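Compared with 9 members called higher of 36, 3 were called on the mean of all probe sets, 5 on the probe set of largest variance, 4 of 28 with _x_at and _s_at probe sets left out, 14 of 31 at a mean log2 of at least 6, and 16 with an intensity trend and robust moderation. At an adjusted p under 0.01 there were 3, and 3 at 1.2-fold or more. The replicate block gave 3. Centring arrays on their medians and array weights left 9. Leaving out 1 array gave 3 (CA replicate 3 or DMSO replicate 3), 4 (CA replicate 1, DMSO replicate 1 or 2) or 6 (CA replicate 2), with fewer samples in each fit. The share of all genes called higher was 6.64% in the main fit and 17.4% in the fit of brighter genes. For the other fits it is not given here, so their counts do not set the lipid genes apart. Members called lower numbered 0, but 2 (INSIG2 and STARD4) at a mean log2 of at least 6 and with the trend, and 1 with array weights. Some directions turned with the probe set, the cause of which was not tested: on the probe set of largest variance for IDI1 (-0.153, the same without _x_at or _s_at probe sets), MVK (0.219), INSIG1 (0.009), SREBF1 (-0.151), SREBF2 (0.017), FASN (-0.043), ACACA (-0.063), ELOVL5 (-0.065), LIPA (0.238) and MLX (0.183), on the mean of all probe sets for MVK (0.026), SREBF1 (-0.031) and LIPA (0.038), and without _x_at or _s_at probe sets for FADS2 (-0.059) and EBP (0.079). With 1 array left out, MVD ranged over -0.066 to 0.077 and EBP over -0.072 to 0.033. None of these turned values was called. Of 670 values of single genes under alternatives, 525 kept direction and call, 109 lost the call, 17 gained it and 19 turned. The 670 include genes not called in the main fit, which had no call to lose. Called members kept the call in as few as 4 of 14 alternatives (HMGCS1 and IDI1) and in as many as 14 of 14 (ACSL1).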
